A study of Mus musculus with 8 samples.

Results

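The type II classical cadherins described here are the 9 genes Cdh6, Cdh7, Cdh8, Cdh9, Cdh10, Cdh11, Cdh12, Cdh18 and Cdh20, followed in ATAC-seq peak lists from granule neuron progenitors (GNPs) of the mouse cerebellum at postnatal day 7. Peaks were assigned to these genes if they touched the gene itself or the 100 kb on either side of it, with genes taken from GENCODE release M21 on mm10 (GRCm38), and a peak near 2 of the genes was counted once. By this rule 349 of 152984 WT peaks, 193 of 106974 het peaks and 331 of 174407 mutant peaks belonged to the 9 genes, which is 873 of 434365 peaks in all. The genes were proposed with the peak counts of these lists in view, so the numbers of peaks present in one list and absent from another are descriptions, and none of them was tested.

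ATAC-seq maps open chromatin by the insertion of adapters with the Tn5 transposase, and a peak is a stretch where insertions pile up. Chd7 encodes an ATP-dependent chromatin remodeler. The WT group (3 libraries) carried floxed Chd7 alleles without Cre (Chd7 f/f in the study's methods), the het group (2 libraries) was Atoh1-Cre::Chd7 f/+, and the mutant group (3 libraries) was Atoh1-Cre::Chd7 f/f, in a strain that the labels give as C56Bl6/J. Atoh1-Cre acts in the granule neuron lineage, and by the study's account Chd7 protein remained in the posterior lobe of the mutant cerebellum, which it put down to a probable lower recombination there. The WT and mutant libraries are described as technical replicates. The authors pooled the libraries of each group before calling peaks, so each genotype has 1 list. From these lists replicate errors cannot be given, and differences between genotypes could not be tested. The study itself compared read counts per peak across replicates with edgeR. It reported a small subset of peaks as altered with Chd7 loss, with het cells in between. WT and mutant lists rested on 50394313 and 51030229 tags and the het list on 30923002. Tags of the mutant libraries were 76 bp long and those of the other libraries 107 bp, which cannot be told apart from genotype. Het peaks came from another alignment and another read extension than the WT and mutant peaks. In bulk material, fewer cells of a type and less accessible chromatin per cell cannot be told apart.

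The label of the cells was checked at the starts of marker genes. All 8 granule neuron progenitor genes examined had a peak within 1 kb of a start in every list, with median ranks between 88.6 and 90.4 on a scale on which 100 is the strongest peak of a list. Genes of other cells had start peaks too. Of 3 Purkinje cell genes 2 had one in every list, with median ranks of 91.0 in WT and 91.7 in mutant, above those of the progenitor genes. All 3 glial genes had one in every list (57.5 in WT and 79.1 in mutant), as did 2 of 3 oligodendrocyte genes (69.3 and 65.4) and all 3 endothelial genes (54.9 and 53.8). The 3 interneuron genes all had one in WT and mutant (42.3 and 48.9) and 2 of them in het, while of 3 microglial genes 1 had one in WT, 0 in het and 1 in mutant. Start peaks thus did not separate the progenitor genes from the Purkinje cell genes, while the medians of the other cell types were lower. Single genes overlapped: in mutant a glial gene reached 87.8, and the lowest progenitor gene had 63.6. The part of other cells, and of the rise at glial genes, in the results below was not tested.

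Cadherins are membrane proteins that hold cells together through calcium-dependent binding of their extracellular repeats on apposed cells, while the cytoplasmic tail recruits catenins and through them the actin cytoskeleton. Type II classical cadherins lack the short peptide motif that type I members such as E- and N-cadherin carry, they bind partly across members, and their combinations are known to sort neurons into pools, layers and synaptic partners. Several are large neuronal genes that stand in gene-poor DNA, so that most of their possible regulatory elements lie in introns or far from the start.

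The 9 genes fell into 3 places in the genome. Cdh6, Cdh9, Cdh10, Cdh12 and Cdh18 lie on chromosome 15, Cdh7 and Cdh20 on chromosome 1, and Cdh8 and Cdh11 on chromosome 8. Cdh12 (chr15:20449265-21589533) and Cdh18 (chr15:22549022-23474418) were by far the longest, with gene bodies of 1140 and 925 kb, and the other 7 bodies ran from 128 kb for Cdh9 to 392 kb for Cdh8. Together the 9 windows covered 5.26 Mb and touched 2 other protein-coding genes, Drosha beside Cdh6 and Acot10 within the Cdh12 window, and 16 long non-coding genes. Their GC content ran from 35.8% at Cdh7 to 41.9% at Cdh6, against 41.7% for the genome. Within 20 kb inside the window edges lay 21 WT, 7 het and 18 mutant peaks, and within 20 kb outside them 17, 13 and 25.

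Some of the sequences behind the results are shown first, as the plus strand of mm10 read from the reference genome. Letters in capitals match one of 6 motifs that were searched on both strands, and everything else is in lower case. The E-box motifs were CAGCTG and CAGATG (its reverse complement reads CATCTG), the core sites of proneural factors such as Atoh1 and Neurod1. The others were TGANTCA for AP-1, AACAAT for Sox factors, TTGGC and GCCAA 5 bases apart for NFI, and CCA, 2 bases, AGG, 1 base, GGC for CTCF. An E-box can lie wholly within a match to the NFI pattern. The first 5 are the strongest WT peaks with no mutant peak within 300 bp, named by gene and distance from its start.
Cdh9, 88.9 kb upstream (chr15:16639749-16639916): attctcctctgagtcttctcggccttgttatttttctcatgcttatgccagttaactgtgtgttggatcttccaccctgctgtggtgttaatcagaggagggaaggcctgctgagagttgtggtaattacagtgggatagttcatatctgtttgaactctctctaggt
Cdh18, 348 kb inside the gene (chr15:22897336-22897512): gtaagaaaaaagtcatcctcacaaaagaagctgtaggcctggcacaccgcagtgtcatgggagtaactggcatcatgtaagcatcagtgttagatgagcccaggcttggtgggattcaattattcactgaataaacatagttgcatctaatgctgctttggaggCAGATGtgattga
Cdh18, 626 kb inside the gene (chr15:23174707-23174891): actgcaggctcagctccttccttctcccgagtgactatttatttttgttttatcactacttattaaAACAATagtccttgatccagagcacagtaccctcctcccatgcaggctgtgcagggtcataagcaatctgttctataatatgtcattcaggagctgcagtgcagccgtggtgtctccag
Cdh12, 924 kb inside the gene (chr15:21372723-21372902): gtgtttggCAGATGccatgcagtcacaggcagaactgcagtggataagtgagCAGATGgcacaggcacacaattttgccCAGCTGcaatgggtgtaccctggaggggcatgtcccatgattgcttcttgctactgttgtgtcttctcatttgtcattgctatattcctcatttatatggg
Cdh18, 285 kb inside the gene (chr15:22833839-22833989): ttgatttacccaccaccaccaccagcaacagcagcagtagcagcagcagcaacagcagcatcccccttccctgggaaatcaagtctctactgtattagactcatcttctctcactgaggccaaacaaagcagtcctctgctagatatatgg

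The next 3 are among the 5 strongest mutant peaks with no WT peak within 300 bp, chosen to show 1 from each of 3 genes.
Cdh12, 45.5 kb upstream (chr15:20403746-20403871): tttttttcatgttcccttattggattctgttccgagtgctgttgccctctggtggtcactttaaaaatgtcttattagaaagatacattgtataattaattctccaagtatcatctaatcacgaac
Cdh10, beyond the 3′ end, 287 kb from the start (chr15:19105581-19105722): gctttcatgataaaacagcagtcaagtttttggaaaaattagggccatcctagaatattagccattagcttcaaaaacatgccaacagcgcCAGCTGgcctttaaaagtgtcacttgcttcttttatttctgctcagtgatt
Cdh20, 78.5 kb upstream (chr1:104689813-104690041): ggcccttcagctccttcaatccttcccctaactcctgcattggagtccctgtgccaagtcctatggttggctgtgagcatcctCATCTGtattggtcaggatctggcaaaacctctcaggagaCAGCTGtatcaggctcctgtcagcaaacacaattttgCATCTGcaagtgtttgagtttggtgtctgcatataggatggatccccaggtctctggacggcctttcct

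The last 2 are peaks found in both lists, first the exonic Cdh10 peak with the lowest mutant signal relative to WT, then 300 bases of the strongest peak of the 9 loci.
Cdh10, exon, 148 kb inside the gene (chr15:18966710-18966948): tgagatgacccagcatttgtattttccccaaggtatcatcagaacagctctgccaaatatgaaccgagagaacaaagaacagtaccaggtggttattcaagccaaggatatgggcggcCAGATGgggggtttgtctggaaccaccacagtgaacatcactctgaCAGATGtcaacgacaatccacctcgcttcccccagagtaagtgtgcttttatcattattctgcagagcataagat
Cdh7, 33.7 kb upstream (chr1:109948628-109948927): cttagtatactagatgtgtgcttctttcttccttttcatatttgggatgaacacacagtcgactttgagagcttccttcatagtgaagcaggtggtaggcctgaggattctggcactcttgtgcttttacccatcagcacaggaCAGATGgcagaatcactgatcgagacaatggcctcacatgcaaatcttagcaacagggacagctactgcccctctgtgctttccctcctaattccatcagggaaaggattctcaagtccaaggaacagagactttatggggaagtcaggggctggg

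The first question was whether the same stretches of the cadherin loci were open in WT and mutant GNPs. The whole mutant list was longer than the WT list, whereas the cadherin loci held fewer mutant than WT peaks, by a ratio of 0.948, and Cdh12 alone held 67 mutant against 85 WT peaks, a ratio of 0.788. Peak density at the loci was 6.63 WT and 6.29 mutant peaks per 100 kb, against 5.61 and 6.40 in the genome.

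A WT peak was called unshared when no mutant peak overlapped it by 1 bp or more. Of the 349 WT peaks at the cadherin loci, 136 (39.0%, Wilson 95% interval 34.0 to 44.2%, counting error over peaks only) were unshared, where the whole WT list had 22.8%. Weak peaks are unshared more often in any list, and the cadherin peaks were weaker than most, with a median −log10 q of 5.37 against 6.66. WT peaks of the whole list taken in the same strength classes (10 equal classes by −log10 q) were unshared in 27.5% of cases, and at the same strength and GC content in 28.9%. The share at the cadherin loci thus stood above each of these values.

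The reverse share lay above that of the whole list and below that at the same strength. Of 331 mutant peaks, 114 (34.4%, 29.5 to 39.7%) had no overlapping WT peak, where the whole mutant list had 30.7%, and mutant peaks of the same strength 36.6%.

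The genes differed among themselves, and Cdh12 stood highest. Of its 85 WT peaks, 50 (58.8%, 48.2 to 68.7%) had no mutant peak, against 34.5% for WT peaks of the same strength. Cdh18 followed among the genes with many peaks, with 29 of 68 (42.6%, 31.6 to 54.5%) against 25.5%. At Cdh9, a cadherin of hippocampal mossy fiber synapses and retinal bipolar cells, 7 of 17 were unshared, with an interval of 21.6 to 64.0% that held the 33.7% at the same strength.

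For the other 6 genes the interval also held the value at the same strength. The counts were 13 of 36 at Cdh8, 9 of 29 at Cdh10, 5 of 17 at Cdh7, 8 of 29 at Cdh11, 10 of 42 at Cdh20 and 5 of 26 at Cdh6. Cdh6, at 19.2%, was the one gene below its value at the same strength, 27.5%. Neighbors in the order of the 9 shares had overlapping intervals throughout. The intervals cover counting error over peaks only, in genes chosen with such counts in view. They test no gene against its background or against another gene.

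**Figure D1:**
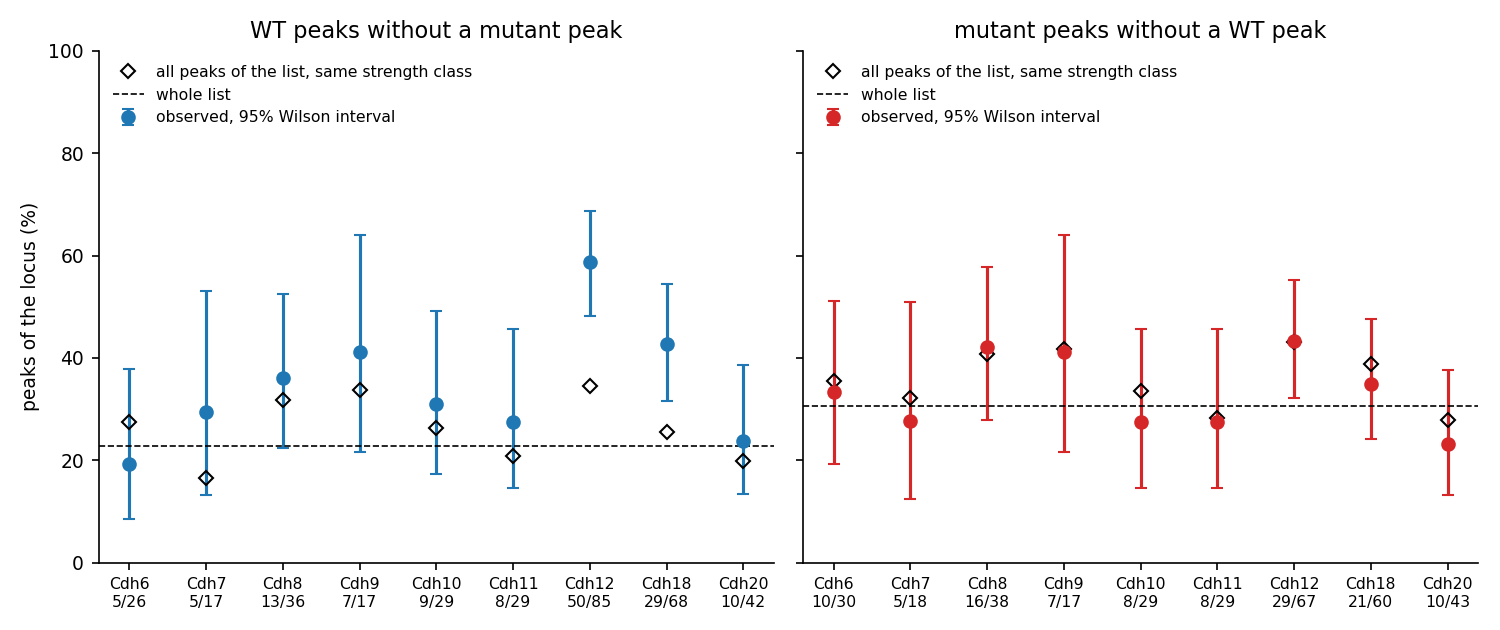
Share of peaks at each cadherin locus without an overlapping peak in the other list (vertical axis, percent of the peaks of that locus), for WT peaks (left) and mutant peaks (right), with 95% Wilson intervals, the share of all peaks at the same strength (diamonds) and the whole-list share (dashed). In WT the Cdh12 and Cdh18 intervals lie above their diamonds, and in mutant each diamond lies within its interval.

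Grouped by chromosome, the 5 genes of chromosome 15 had 100 of 225 WT peaks without a mutant peak (44.4%, 38.1 to 51.0%) against 29.9% at the same strength. The 4 genes of chromosomes 1 and 8 had 36 of 124 (29.0%, 21.8 to 37.6%) against 23.1%. Chromosome 15 outside the 5 loci had 23.0%, close to the whole list. These 5 genes were put forward with their many peaks in a single list in view. Their contrast with the other genes and with the rest of the chromosome is therefore a description only. With Cdh12 left out, the share over the remaining 8 genes was 86 of 264 (32.6%, 27.2 to 38.4%) against 25.2%.

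In mutant, Cdh12 had 29 of 67 peaks without a WT peak (43.3%, 32.1 to 55.2%) against 43.0% at the same strength, and Cdh18 had 21 of 60 (35.0%) against 38.7%. The values at Cdh8, 16 of 38, at Cdh6, 10 of 30, and at Cdh20, 10 of 43, were also near those at the same strength, which were 40.8, 35.5 and 27.9%. For none of the 9 genes did the interval of the mutant share leave out the value at the same strength.

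The unshared peaks at the cadherin loci were weak and narrow. Of WT peaks with −log10 q of 5 or more, 23 of 184 (12.5%) were unshared, against 5.78% in the whole list, and of those at 10 or more, 1 of 107, against 0.456%. In mutant, 22 of 177 peaks at 5 or more (12.4%) were unshared against 11.2%, and 0 of 99 at 10 or more, which allows a share of up to 3.03%, against 1.21%. Median width was 121 bp for unshared and 246 bp for shared WT peaks. Counting the strength classes from 1, the weakest, the excess over the whole list was widest in classes 3 to 5. There 34 of 54 cadherin peaks were unshared in class 3 against 44.5%, 21 of 33 in class 4 against 31.9%, and 15 of 34 in class 5 against 20.4%. Class 6 had 3 of 26 and class 7 had 1 of 25, against 7.91 and 2.5%. The weakest classes were above the list too, with 33 of 46 in class 1 against 65.8% and 28 of 39 in class 2 against 54.6%.

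**Figure D2:**
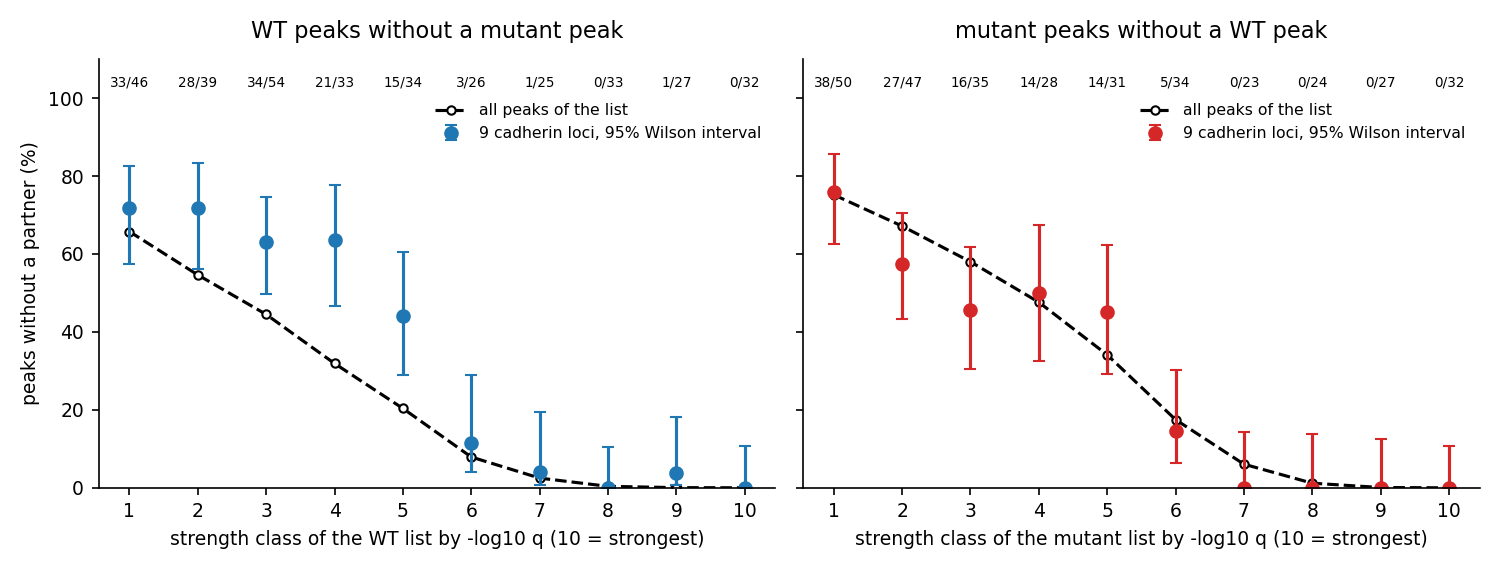
Share of peaks without a partner in the other list (vertical axis, percent) by strength class of the list (horizontal axis, 10 is strongest), for WT (left) and mutant (right), with cadherin loci as filled points with 95% Wilson intervals and all peaks as open points. Cadherin WT peaks lie above the dashed line in classes 1 to 7 and in class 9, furthest in classes 3 to 5, and cadherin mutant peaks lie on both sides of it.

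Repeat-derived sequence moved with the unshared peaks. In the reference genome 35.3% of bases are soft-masked as repeats. At the cadherin loci 43 of 136 unshared WT peaks (31.6%) had more than 50% of their bases masked, against 25 of 213 shared ones (11.7%), and in the whole WT list the shares were 16.7 and 3.37%. With such peaks left out, 93 of 281 WT peaks at the 9 genes were unshared (33.1%, 27.9 to 38.8%) against 23.0% for the rest of the list at the same strength. Cdh12 then had 32 of 62 (51.6%, 39.4 to 63.6%) against 26.9%, and Cdh18 22 of 51 (43.1%, 30.5 to 56.7%) against 23.0%. Among mutant peaks outside masked sequence, 76 of 265 were unshared (28.7%) against 32.5%. Outside masked sequence the WT share thus stayed above its value at the same strength, and the mutant share lay below it.

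Along Cdh12, unshared WT peaks were found in each of 4 equal parts of the gene body. From the 5′ to the 3′ part, 10 of 14, 15 of 25, 6 of 15 and 11 of 19 WT peaks had no mutant peak, and 5 of 9, 8 of 20, 5 of 15 and 4 of 12 mutant peaks had no WT peak. The longest run of consecutive unshared WT peaks held 7 peaks between chr15:20556500 and 20643756, an 87.3 kb stretch of the first part with 1 mutant peak, and the strongest of the 7 had a −log10 q of 5.16. In no other gene did such a run exceed 3 WT peaks. Runs of mutant peaks without a WT peak reached 4 peaks at Cdh8, Cdh12, Cdh18 and Cdh20.

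**Figure D3:**
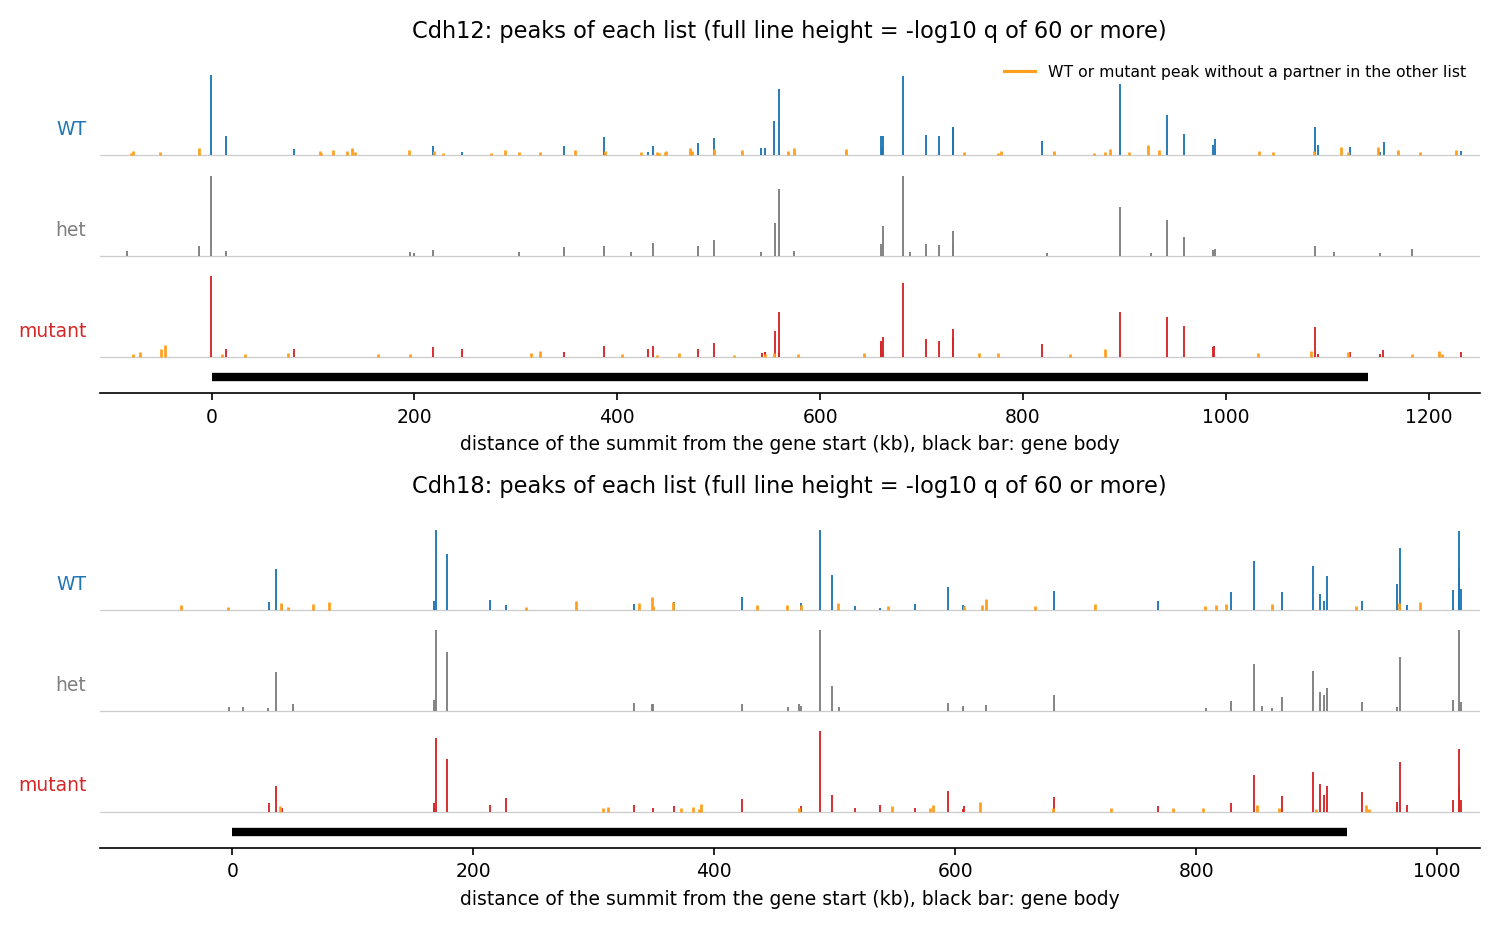
Peaks of the WT, het and mutant lists along Cdh12 and Cdh18 (horizontal axis, distance of the summit from the gene start in kb, black bar for the gene body), with line height proportional to −log10 q up to 60 and peaks unshared between WT and mutant in orange. The tall peaks recur in all 3 lists, and the orange ones, 50 WT and 29 mutant at Cdh12 and 29 WT and 21 mutant at Cdh18, are short.

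The strongest WT peak without a mutant counterpart was the one printed above at 88.9 kb upstream of Cdh9. Its summit pileup was 32 tags, enriched 12.3-fold over the local background, and its −log10 q of 27.2 put it at rank 87.9 of the WT list, and no het peak lay within 300 bp. In the whole list 234 of 56178 WT peaks at −log10 q of 10 or more (0.417%) had no mutant peak within 300 bp, and this was the 1 of 107 at the cadherin loci. It held none of the 6 motifs and 0% masked bases. The lists hold no value for positions that were not called, so the mutant signal there is not known.

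The other 4 were weaker. The Cdh18 peaks at 348 and 626 kb had −log10 q of 9.92 and 8.66, with 18 and 16 tags, and each overlapped a het peak. The first of them holds 1 CAGATG and the second, within 1 kb of an annotated transcript start, 1 AACAAT. The Cdh12 peak at 924 kb (7.94, 15 tags) holds 3 E-boxes and had no het peak, and the Cdh18 peak at 285 kb (7.14, 14 tags) had no motif, no het peak and 84.1% masked bases.

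The 5 strongest mutant peaks without a WT peak were the Cdh12 peak at 45.5 kb upstream (−log10 q 8.99, 17 tags), the Cdh10 peak beyond the gene (8.18, 15 tags), peaks at Cdh18 (chr15:23169483-23169571) and Cdh20 (7.24 and 14 tags each), and an intronic peak of Cdh11 (chr8:102717383-102717513, 6.83, 15 tags). None of the 5 overlapped a het peak. At −log10 q of 10 or more, 0 of 99 mutant peaks had no WT peak within 300 bp, where the list had 1.12%. The Cdh18 one lies about 5 kb from the unshared WT peak at 626 kb and holds 1 CAGCTG. The Cdh20 one holds 3 E-boxes and is 84.7% masked.

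In the het list, most unshared WT and mutant peaks were absent as well. Of the 136 unshared WT peaks, 11 overlapped a het peak (8.09%, 4.58 to 13.9%), against 13.2% of all unshared WT peaks, and of the 114 unshared mutant peaks 9 did (7.89%, 4.21 to 14.3%), against 15.2%. The WT share depended on the rule: among WT peaks with −log10 q of 5 or more it was 7 of 23 (30.4%, 15.6 to 50.9%) against 23.8%, which turns its direction, and with lists of equal length 25 of 75 (33.3%) against 36.3%. The mutant share stayed below its background, at 0 of 22 against 24.9% and 6 of 37 (16.2%) against 38.2%. Shared WT peaks overlapped a het peak in 153 of 213 cases (71.8%), against 77.9%. The het list rests on fewer tags and other settings than the other lists, and unshared peaks are weaker than shared ones.

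Set against het directly, 185 of 349 WT peaks (53.0%, 47.8 to 58.2%) had no het peak, where the list had 36.9% and peaks of the same strength 42.6%. For mutant it was 168 of 331 (50.8%, 45.4 to 56.1%), where the list had 41.3% and peaks of the same strength 47.3%. Of 193 het peaks 36 (18.7%) had no WT peak against 13.3%, and 39 (20.2%) no mutant peak against 10.7%. At the same strength the last 2 backgrounds were 17.8 and 14.6%. The strongest het peaks with neither a WT nor a mutant peak within 300 bp were at Cdh11 (chr8:102636888-102637224), Cdh18 (chr15:22598899-22599141) and Cdh20 (chr1:104807925-104808124), with −log10 q from 4.78 to 4.96, and such peaks made up 25 of 193 (13.0%, 8.93 to 18.4%) against 6.32% of the list and 8.97% at the same strength.

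When peaks of the 3 lists within 300 bp of each other were joined, the 9 loci held 445 regions. Regions with peaks of all 3 lists made up 145 (32.6%, against 45.7% in the genome), regions of WT alone 104 (23.4% against 13.3%), of mutant alone 88 (19.8% against 20.1%) and of WT and mutant without het 64 (14.4% against 12.7%). WT with het without mutant gave 11 regions (2.47% against 1.66%), het with mutant without WT 8 (1.8% against 3.03%), and het alone 25 (5.62% against 3.52%). The loci differed from the genome most in the regions of WT alone and of all 3 lists.

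The second question was whether peaks present in both lists had the same height. For the 213 WT cadherin peaks with an overlapping mutant peak, summit pileup was scaled to 1000000 tags of its list (scaled pileup) and the strongest mutant partner was taken. The median log2 ratio of mutant to WT was -0.11 (quartiles -0.34 and 0.17), where all 118098 shared WT peaks had a median of 0.075. Mutant was the lower of the pair for 136 of 213 peaks (63.8%), against 42.4% of all shared peaks. Equal tag counts in WT and mutant give -0.018 after scaling. Such pairs were counted as lower, at the loci and in all shared peaks alike. Ranks within each list, which do not depend on scaling to depth, gave the same direction: 125 of 213 (58.7%) ranked lower in mutant against 38.1%, with a median rank change of -0.82 against 2.28.

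A change past 2-fold was rare. It was met by 4 peaks lower in mutant (1.88% against 0.411%) and 3 peaks higher in mutant (1.41% against 1.31%). The shift at these loci was therefore a small one shared by many peaks.

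The medians of 6 genes lay below 0, and those of 4 of them at -0.17 or lower. At Cdh12, 29 of 35 shared peaks were lower in mutant, with a median log2 ratio of -0.21. At Cdh18 it was 32 of 39 (-0.23), at Cdh10, a cadherin of brain, 15 of 20 (-0.17), and at Cdh7, first known from migrating neural crest, 8 of 12 (-0.24). Cdh9 had 6 of 10 (-0.064) and Cdh20 18 of 32 (-0.018, the value of equal tag counts). Cdh6 had 10 of 21 (0.020), Cdh11, the cadherin of osteoblasts and mesenchyme, 8 of 21 (0.043), and Cdh8, which marks neurons of sensory pathways, 10 of 23 (0.17), so these 3 medians were above 0. Only that of Cdh8 was above the 0.075 of all shared peaks, and no test separates the genes from one another.

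**Figure D4:**
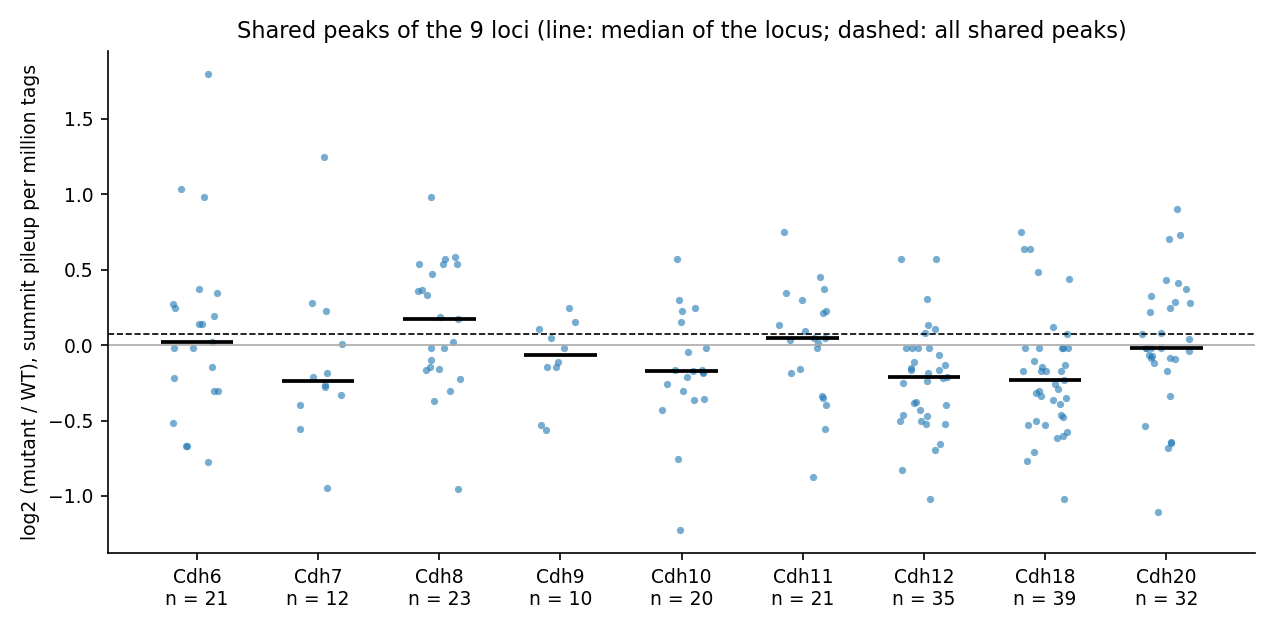
Log2 ratio of mutant to WT scaled pileup (vertical axis) for each shared WT peak at the 9 loci, with the locus median (black bar) and the median of all shared peaks (dashed, 0.075). The medians of Cdh7, Cdh10, Cdh12 and Cdh18 lie between -0.24 and -0.17, and that of Cdh8 lies at 0.17.

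On chromosome 15 the 5 genes had 92 of 125 shared peaks lower in mutant (73.6%), with a median of -0.17, while shared peaks of that chromosome outside the loci had 42.6% and a median of 0.075. The 4 genes on the other chromosomes had 44 of 88 lower (50%) and a median of -0.0064. The direction against all shared peaks was the same in each of 5 equal parts of the list by GC. All shared peaks had medians between 0.053 and 0.11, and cadherin peaks between -0.23 and -0.018. The last of these is the value of equal tag counts. Against the median of all shared peaks of the same strength and GC, 144 of 213 cadherin peaks were lower (67.6%). Outside masked repeats 120 of 188 were lower in mutant (63.8%), and at Cdh12 27 of 30.

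Strong peaks away from transcript starts were examined by themselves. For peaks with −log10 q of 10 or more that were more than 1 kb from any annotated start, 45 of 54 on chromosome 15 were lower in mutant, with a median log2 ratio of -0.26, against 51.5% and -0.018 for all such shared peaks. Cdh12 had 13 of 14 lower (-0.24) and Cdh18 17 of 18 (-0.37). The 4 genes on chromosomes 1 and 8 had 21 of 35 lower (-0.018), and a ratio of -0.018 is that of equal tag counts.

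Cdh12 shows the pattern peak by peak, in examples picked after their values were seen. Its intronic peak at 560 kb (chr15:21008415-21009408) had a scaled pileup of 1.39 in WT and 0.980 in mutant. The peak at 896 kb (chr15:21344797-21345069) had 1.03 and 0.745, and the one at 555 kb (chr15:21004157-21004418) 0.893 and 0.686. The tallest intronic peak of the gene by −log10 q, at 682 kb (chr15:21130615-21130995), had 1.33 and 1.20. The 1 strong distal peak with more signal in mutant lay at 958 kb (chr15:21407351-21407617), with 0.476 in WT and 0.588 in mutant.

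Of the shared peaks with −log10 q of 10 or more, the one with the lowest mutant signal relative to WT was the printed exonic peak of Cdh10. It had 37 tags in WT and 16 in mutant, or scaled pileups of 0.734 and 0.314, a WT to mutant ratio of 2.34 with an exact interval of 1.27 to 4.51 that covers tag counting alone. A peak beyond the 3′ end of Cdh18 (chr15:23515725-23516112) had 34 and 17 tags, a ratio of 2.03 (1.10 to 3.87), and 89.2% of it is masked. An intronic peak of Cdh8 (chr8:99145327-99145696) had 23 and 12 tags, a ratio of 1.94 (0.927 to 4.28). The interval of the last holds 1, and as these 3 were picked as the lowest of 106 peaks their ratios are descriptions.

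The strong shared peaks with the most mutant signal relative to WT were intronic. They lay in Cdh20 (chr1:104925048-104925686, 22 tags in WT and 37 in mutant, a mutant to WT ratio of 1.66, 0.954 to 2.96), Cdh8 (chr8:99245901-99246115, 30 and 44 tags, 1.45, 0.890 to 2.39) and Cdh18 (chr15:23452094-23452507, 24 and 34 tags, 1.40, 0.806 to 2.47). All 3 intervals held 1.

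Start peaks were found in all 3 genotypes. Each of the 9 genes had a peak within 1 kb of an annotated start in every list. In WT and mutant the strongest such peak had scaled pileups of 1.85 and 1.59 at Cdh6, 1.21 and 1.21 at Cdh7, 1.61 and 1.63 at Cdh8, 0.655 and 0.705 at Cdh9, and 1.63 and 1.45 at Cdh10. It had 1.21 and 1.29 at Cdh11, 1.85 and 1.69 at Cdh12, 1.81 and 1.90 at Cdh18, and 1.59 and 1.49 at Cdh20. The Cdh18 peak lay at an internal annotated start, 487 kb inside the gene, and the WT peak nearest the 5′ start of Cdh18 was 3.3 kb upstream. Cdh9 was the lowest gene in every list, and WT was the higher of the pair at 4 genes and mutant at 5. Het values, from 1.52 at Cdh9 to 4.59 at Cdh6, came from a longer read extension and are not on the scale of the others.

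**Figure D5:**
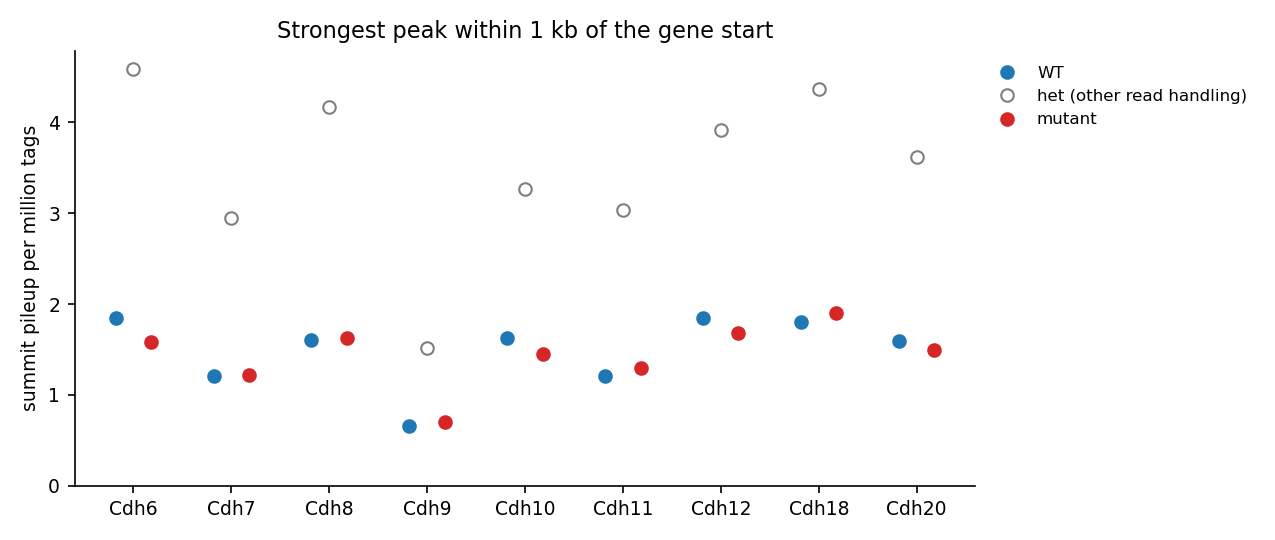
Scaled pileup, in summit tags per 1000000 tags (vertical axis), of the strongest peak within 1 kb of a start of each cadherin gene, for WT, het and mutant. WT and mutant points lie close together for each gene, with Cdh9 lowest, and the het points, made with a longer read extension, stand above both.

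The start regions themselves could be read from RefSeq (GRCm38.p6) for 8 of the 9 genes, as 10 promoters of 300 bases each. WT and mutant peaks overlapped all 10, and het peaks 9, against 47.6, 48.5 and 46.6% of 32851 promoters. GC content ran from 37.7% at Cdh10 to 62.7% at the first of 3 Cdh7 starts, against a median of 52.7%. CAGCTG was found in the promoters of Cdh9 and Cdh12 (16.3% of all promoters) and CAGATG in 1 of the 3 Cdh7 promoters (17.2%). The AP-1, Sox, NFI and CTCF patterns were in none of the 10, where 7.81, 10.7, 0.0365 and 0.916% of all promoters held them.

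The strongest shared peaks of the family were of both kinds. The printed Cdh7 peak, 33.7 kb upstream of the gene, had a scaled pileup of 1.75 in WT and 1.45 in mutant and ranked above 99.8 in each list. Upstream peaks of Cdh20 at 21.4 kb (chr1:104746582-104747266) and 13.8 kb (chr1:104754331-104755154) had 2.04 and 1.88 and 1.79 and 1.70. The other 2 were the start peaks of Cdh12 and Cdh18 given above, of which that of Cdh18 lies at an internal start. The WT to mutant ratios of these 5 ran from 0.95 to 1.20, and all 5 counting intervals held 1.

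Introns held 222 of the 349 WT peaks (63.6%, against 38.9% of the list), and start regions 25 (7.16%, against 16.4%). Gene bodies made up 3464 of the 5264 kb in the windows, and the list was not matched for this, so these shares describe the windows as well as the peaks. Of the intronic WT peaks 97 of 222 were unshared (43.7%, 37.3 to 50.3%) against 28.9% at the same strength, and of the peaks near starts 2 of 25 (8%) against 10.2%. The values for mutant were 77 of 204 (37.7%) against 40.3%, and 1 of 26 (3.85%) against 14.8%.

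Sequence within 150 bp of the summit differed in places between unshared and shared WT cadherin peaks. CAGATG was found in 40 of 136 unshared peaks (29.4%, 22.4 to 37.6%) and 91 of 213 shared ones (42.7%, 36.3 to 49.4%), where the whole list had 34.2 and 35.0%. CAGCTG was in 19.9 and 28.6% (whole list 23.6 and 30.1%), and AACAAT in 20.6 and 16% (14.4 and 11.6%). TGANTCA was in 9.56 and 12.2% (9.48 and 8.86%), the CTCF pattern in 0 and 1.41% (1.03 and 3.46%), and the NFI pattern in 1 and 0 peaks. For CAGATG the interval of the shared cadherin peaks lay above the list value, and that of the unshared ones included it. For AACAAT both intervals lay just above the list values, at 14.6 to 28.1% for unshared and 11.7 to 21.5% for shared peaks. Median GC content was 46.3% in unshared and 44.9% in shared cadherin peaks, whereas in the list it was 48.8 and 50.5%.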

How the data were processed

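Libraries were made by ATAC-seq from percoll-purified GNPs at postnatal day 7, with 3 WT, 2 het and 3 mutant libraries, and each deposited list is 1 set of narrow peaks per genotype on pooled libraries. The submitters' processing notes name Trim Galore 0.4.1, STAR 2.5.0b, Bowtie 1.0.0, Picard 1.139 and MACS2 2.1.0.20150731. Per the file headers, the authors called peaks without a control at a q-value cutoff of 0.05. WT and mutant came from a STAR folder, unshifted, with modeled extensions of 90 and 88 bp, and het from a bowtie folder with a shift and an extension of 200 bp, while the study's methods describe bowtie and the shift alone. The authors deposited 3 values per peak: the pileup signal at the summit in whole tags, the fold enrichment (a ratio to local background) and −log10 q. All columns mapped to a group, and 0 were left out. The −log10 p column was not used. Scaled pileup is summit tags per 1000000 tags in the header, so 1 tag is 0.0198 in WT and 0.0196 in mutant.

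Overlap meant 1 bp or more. Strength is −log10 q, in 10 equal classes of each list, rank is the percent of a list at or below a peak, and place was read at the summit (start within 1 kb, exon, intron, intergenic). No peak passed a chromosome end on the 21 chromosomes compared with GRCm38.p6. Sequences, GC content and soft-masked bases came from that genome. Intervals are Wilson 95% for shares and exact 95% for tag ratios; neighboring peaks and PCR copies are not independent. Functions were tested on simulated lists. Python 3.11.15, numpy 2.4.6, pandas 2.3.3 and scipy 1.17.1 were used. The 9 genes and all lists were chosen with earlier results of these data known. Peaks were named by rule: the strongest start peak of each gene, the 5 strongest unshared WT and mutant peaks (none of the other list within 300 bp), the 3 strongest het ones, the 5 strongest shared peaks, and the 3 lowest and 3 highest mutant to WT ratios at −log10 q of 10 or more. The other 16 cadherin and catenin genes were named when highest or lowest in unshared WT peaks, 2 each.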

Additional observations from a re-analysis of the deposited data

How the results depend on the processing

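No paired analysis was possible because each genotype has 1 pooled list, and for the same reason no library could be left out. Of 45 recalculations over 6 results, 32 stayed within the 95% interval of the value as reported and 13 moved outside it. A change of sign was possible only for the medians of shared peaks, and 0 of those changed sign. Among the shares, the overlap of unshared WT peaks with het turned its direction against the whole list in the stricter setting given below. Leaving out Cdh12, or peaks with more than 50% masked bases, was chosen after seeing the data. The share of WT cadherin peaks without a mutant peak was 54.2% with overlap of at least 50% of both peaks (whole list 35.9%), 33.0% within 300 bp (19.3%), 12.5% at −log10 q of 5 or more (5.78%), 32.6% without Cdh12 and 33.1% without masked peaks (20.3%). The mutant share without a WT peak was 51.7% (43.8%), 12.4% at −log10 q of 5 or more (11.2%), 21.3% with lists of equal length (18.6%) and 28.7% without masked peaks (28.7%). The overlap of unshared WT peaks with het was 30.4% at −log10 q of 5 or more (23.8%) and 33.3% with lists of equal length (36.3%), and of unshared mutant peaks 0% (24.9%) and 16.2% (38.2%). These rules left smaller numbers of peaks, and the cause of the moves was not tested. The median log2 ratio of shared peaks ran from -0.16 to -0.034, the latter with fold enrichment in place of pileup (all shared peaks 0.079). With fold enrichment 115 of 213 shared peaks were lower in mutant, and the interval of the median ran from -0.089 to 0.0090. The median rank change ran from -2.05 to -0.56. Positions without a peak hold no value, which limits every count of unshared peaks.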

Other observations

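The 16 other cadherin and catenin genes examined with the same windows did not stand above the list as a group. Of their 613 WT peaks 133 were unshared (21.7%, 18.6 to 25.1%) against 20.8% at the same strength, and of 687 mutant peaks 200 (29.1%) against 29.2%. The 5 type I cadherins had 28 of 155 WT peaks unshared (18.1%) against 21.4% at the same strength, and 4 further type II or related cadherins 12 of 102 (11.8%, 6.86 to 19.4%) against 18.7%. The 7 catenins, which link cadherin tails to actin and to signaling, had 93 of 356 (26.1%, 21.8 to 30.9%) against 21.2%.

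By gene, the highest shares were at Ctnna3 and Ctnna1, which encode alpha-catenins, and the lowest at Ctnnd1, which encodes p120-catenin, and Cdh24. Ctnna3, with a body of 1574 kb, had 42 of 108 WT peaks unshared (38.9%) against 24.6% at the same strength, and 27 of 94 mutant peaks (28.7%) against 30.9%, so that, as at Cdh12, the WT share and not the mutant share was above its background. Its shared peaks had a median log2 ratio of -0.018, the value of equal tag counts. Ctnna1 had 7 of 19 (36.8%) against 24.0%, Ctnnd1 1 of 20 (5%) against 8.16%, and Cdh24 2 of 28 (7.14%) against 17.3%. Ctnna2 and Ctnnd2, other long catenin genes of 1098 and 857 kb, were named after their values were seen. Ctnna2 had 21 of 88 WT peaks unshared (23.9%) against 18.2%, and 38 of 105 mutant peaks (36.2%) against 29.5%. Ctnnd2 went the other way in WT, with 14 of 74 (18.9%) against 22.1%, and had 34 of 94 mutant peaks (36.2%) against 34.4%.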
